A study of Mus musculus with 6 samples.

Results

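The labeled part was C1q-high macrophages of the bone marrow at postnatal day 8 (P8). It took in all segmented cells of the P8 section with 10 or more transcripts of C1qa, C1qb and C1qc together. The members were thus chosen by these measured C1q counts, which serve below as a description only. The rule selected 592 of the 52594 cells of the section, a share of 1.13% (1.04% to 1.22%), out of 521938 cells in the 6 sections of the series. By the tissue around them, as defined below, 417 of the 592 lay in marrow, 157 in skeletal and 17 in muscle surroundings, and 1 was mixed. All 592 were described against the 34864 cells with 0 C1q transcripts (C1q-0 cells), and the 17138 cells with 1 to 9 were left between these groups. A second reference held the 14165 C1q-0 cells whose center lay within 40 µm of a C1q-high cell (nearby C1q-0 cells).

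The tissue was leg bone of untreated wild-type mice purchased from Jackson laboratory, fixed in formalin, embedded in paraffin and cut at 5 µm, and the run description names the region as femur. The number of mice behind the section is not given in the sources used here, so the section counts as 1 sample. Transcripts of 477 genes were decoded in situ by Xenium imaging, in which gene-specific probes make single RNA molecules visible. An E14.5 fetal liver from the same slide and imaging run, and an untreated adult spleen and a spleen from mice injected with the hemolytic agent phenylhydrazine (PHZ, 40 mg/kg), both on another slide of that run, all wild type, were set beside it. With 1 section, differences between cells could not be tested, all intervals are exact 95% intervals that cover counting error only, and cells are not replicates.

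C1qa, C1qb and C1qc encode the chains of C1q, the recognition molecule that starts the classical complement pathway and also binds dying cells. Resident macrophages are the main source of C1q. In the marrow, a central macrophage surrounded by maturing erythroblasts forms an erythroblastic island, where the macrophage holds the erythroblasts through adhesion molecules such as Vcam1, engulfs the nuclei they expel and recycles iron. F4/80, the product of Adgre1, is the classical surface marker of such macrophages in mice.

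The section held 6446659 gene transcripts within cell outlines, with a median of 109 per cell. Control probes without a mouse target gave 5 counts in all C1q-high cells together. Outlines were nuclei with an expanded border, so that transcripts of a neighbor can lie within them, and doublets were not called. The 52594 barcodes were distinct.

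The 3 genes that defined the cells lie next to one another on chromosome 4, in the order C1qb, C1qc and C1qa with 0 genes between them in the RefSeq annotation of GRCm38.p6. The sum of the 3 genes ran from 10 to 68 with a median of 12. C1qb gave 48.5% of these transcripts, C1qc 30.4% and C1qa 21.1%. C1qb was seen in all 592 cells, C1qc in 98.3%, C1qa in 92.9% and all 3 in 91.2%.

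C1q signal was not limited to these cells. At least 1 C1q transcript was present in 33.7% of the cells of the section. Of the 49804 C1q transcripts of the section, C1q-high cells held 16.9% (16.6% to 17.2%), cells with 1 to 9 held 78.3%, and 4.77% lay outside any outline, compared with 10.6% of the transcripts of all genes. The threshold therefore separated the top of a continuous range. Cells just inside it, with 10 or 11 C1q transcripts (n = 222), had 6831 counts of Adgre1 and 14172 of Vcam1 per 1000000 counts of the 474 genes other than C1q (CPM, the unit of all levels here). Cells just outside, with 8 or 9 (n = 409), had 4715 CPM of Adgre1 and 10431 of Vcam1.

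C1q-high cells carried more transcripts than the references, and their median outline was larger. Their median was 169 transcripts of genes other than C1q (184.5 with C1q), against 97 in C1q-0 cells and 106 in nearby C1q-0 cells. The median area of the outline was 67.2 µm², against 52.5 and 39.4, but the mean area was 114 µm² against 117 in all C1q-0 cells. The median area of the nucleus was 28.2 µm², against 21.3 and 21.2. Per 100 µm², with C1q included, the median was 276 gene transcripts in C1q-high, 212 in C1q-0 and 284 in nearby C1q-0 cells. Within marrow surroundings it was 309 in C1q-high and 288 in C1q-0 cells. The rule counted raw transcripts, and the part of outline size in the selection was not tested.

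The labeled cell type was checked against its markers that the rule had not used. Adgre1 had a median of 1 transcript per C1q-high cell with a range of 0 to 8, and its level was 7107 CPM against 550 in C1q-0 cells, a 12.9-fold ratio (11.9 to 14.01). It was detected in 66.7% of C1q-high cells, 5.33% of C1q-0 cells and 0.260% of the C1q-0 cells with mainly cartilage transcripts, a class that should lack it and that had a median of 56.5 transcripts. After every cell was thinned to 50 transcripts of other genes, which left out 0 C1q-high and 6837 C1q-0 cells, these shares were 31.7%, 2.93% and 0.0920%.

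Vcam1, the adhesion molecule of island macrophages, had a median of 1 with a range of 0 to 15. Its level was 12246 CPM against 2136, a 5.73-fold ratio (5.41 to 6.07), and it was detected in 67.7% of C1q-high, 15.9% of C1q-0 and 1.58% of cartilage-class cells. After thinning, the shares were 42.0%, 9.37% and 0.982%. Both markers were therefore higher in the cells that the rule selected, and each was detected in about as many of them as the other. The ranges of single cells overlapped between groups for both genes, since C1q-0 cells reached 5 transcripts of Adgre1 and 15 of Vcam1.

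Over the 6 genes Adgre1, Vcam1, Cd163, Siglec1, Mrc1 and Timd4, which mark tissue macrophages, at least 2 were detected in 89.4% of C1q-high cells and in 5.68% of C1q-0 cells. At least 3 were detected in 62.0% against 0.665%. None of the 6 was detected in 8 C1q-high cells, 1.35%, and all 6 were found in 10. These shares were not corrected for the greater depth of C1q-high cells.

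Across the panel, 320 genes other than C1q had at least 200 counts over C1q-high and C1q-0 cells and were assessed. Of these, 59 (18.4%) were at least 2-fold higher in C1q-high cells, 55 (17.2%) were at least 2-fold lower, and the median ratio was 0.795. Taken as counts per cell, 101 were higher and 15 lower, since the cells differ in depth. Against nearby C1q-0 cells, 55 of 271 genes (20.3%) were higher and 39 (14.4%) lower, with a median of 0.867. Of these 271, 48 genes were higher against both references and 16 lower. The plot of ratios by gene list shows most macrophage surface genes beyond 2-fold for either reference, whereas iron handling genes (median 0.840 and 0.671) and growth factors (1.08 and 1.30) lie on both sides of 1.

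**Figure D1:**
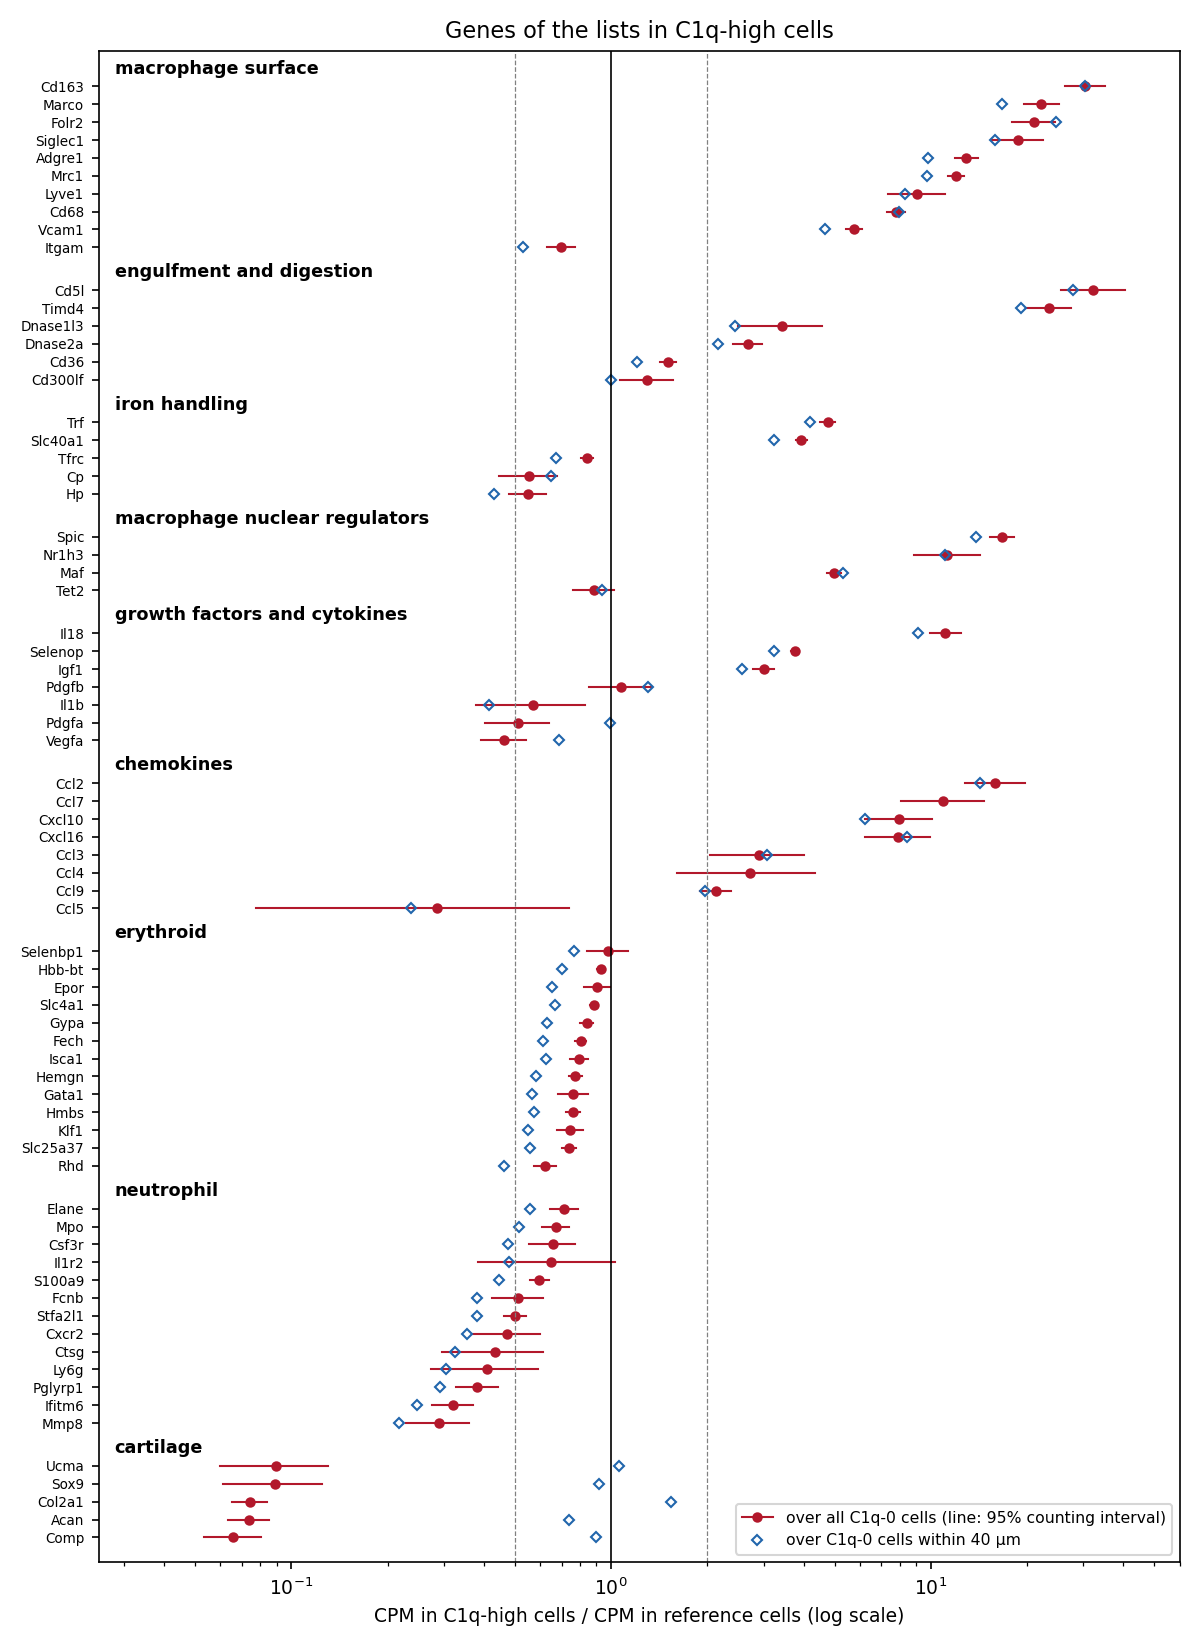
Ratio of the level (CPM of genes other than C1q) in the 592 C1q-high cells to that in C1q-0 cells, on a logarithmic axis, for the assessed genes of 9 gene lists. Filled points use all C1q-0 cells with the exact 95% counting interval, open diamonds use C1q-0 cells within 40 µm, and dashed lines mark 2-fold differences; 9 of 10 macrophage surface genes lie beyond the upper line, and cartilage genes lie far below 1 only against all C1q-0 cells.

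Among the macrophage surface genes, 9 of the 10 assessed were higher and 0 lower, with a median ratio of 12.4. Cd163, the scavenger receptor for hemoglobin bound to haptoglobin, was at 3251 CPM against 107, a 30.3-fold ratio (26.3 to 35.0). Marco, a scavenger receptor of class A, was 22.2-fold higher (19.6 to 25.1), and its distribution was uneven, with a median of 0 and a highest cell of 33 transcripts. Folr2, a folate receptor, was 21.0-fold higher and Siglec1, which binds sialic acids, 18.7-fold. Mrc1, the mannose receptor, was at 14355 CPM against 1199, a 12.0-fold ratio (11.3 to 12.7). Lyve1, a hyaluronan receptor, was 9.03-fold and Cd68, a lysosomal glycoprotein of phagocytes, 7.78-fold higher. Lyve1 was at 1063 CPM over all C1q-high cells and at 69.6 CPM in those of marrow surroundings, as defined below. Itgam, an integrin chain shared with monocytes and neutrophils, was the exception among the assessed genes with a ratio of 0.70, which pooled a ratio of 0.49 (0.43 to 0.55) within marrow and 5.41 (4.38 to 6.64) within skeletal surroundings as defined below. Clec4f, a marker of liver Kupffer cells, had too few counts to be assessed.

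Of the 6 genes for engulfment and digestion, 4 were at least 2-fold higher, with a median of 3.04. Cd5l, a secreted macrophage protein, had the largest ratio of all 320 genes, 32.2 (25.5 to 40.5), at 1327 CPM against 41.3. Timd4, a receptor for the phosphatidylserine that dying cells and expelled nuclei expose, was at 2354 CPM against 100, a 23.5-fold ratio (19.99 to 27.5). Dnase2a, the lysosomal enzyme that digests the DNA of engulfed nuclei, was 2.68-fold higher (2.41 to 2.97), and Dnase1l3, a secreted DNase, 3.41-fold. Cd36 and Cd300lf, receptors for lipids of dying cells, had ratios of 1.51 and 1.30.

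Of the 5 assessed genes for iron handling, 2 were higher and the median was 0.840. Slc40a1, which encodes the iron exporter ferroportin, was at 24994 CPM against 6350, a 3.94-fold ratio (3.78 to 4.09). Its median was 4 transcripts per C1q-high cell with a range of 0 to 27. Trf, the iron carrier transferrin, was 4.76-fold higher (4.51 to 5.02). Tfrc, the transferrin receptor that is abundant on erythroblasts, had a ratio of 0.84 (0.80 to 0.88). The ferroxidase gene Cp and the haptoglobin gene Hp each had a ratio of 0.55, and Hpx had too few counts.

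Of the 4 nuclear regulators, 3 were higher. Spic, a transcription factor needed for iron-recycling macrophages, was at 7090 CPM against 425, a 16.7-fold ratio (15.3 to 18.2), with a range of 0 to 11 transcripts per cell. Nr1h3, the sterol receptor LXRα, was 11.3-fold and Maf, a transcription factor of resident macrophages, 4.98-fold higher. Tet2, a broadly expressed DNA dioxygenase, had a ratio of 0.88.

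Growth factors and cytokines were mixed, with 3 of 7 assessed genes higher and 1 lower, beside 18.4% and 17.2% of all assessed genes. Within marrow surroundings, as defined below, 3 of 7 were higher and 0 lower, beside 16.9% and 18.9%. Within skeletal surroundings, 2 of 5 were higher and 2 lower, beside 27.1% and 17.5%. Il18 was 11.1-fold higher (9.92 to 12.4), and Selenop, a secreted selenium carrier, was at 48222 CPM against 12808, a 3.76-fold ratio. Igf1, a growth factor, was 2.998-fold higher, while Vegfa, which acts on vessels, had a ratio of 0.46. Pdgfb, Il1b and Pdgfa had ratios of 1.08, 0.57 and 0.51. Of 8 assessed chemokines, 7 were higher, led by the monocyte attractants Ccl2 (15.9-fold) and Ccl7 (10.9-fold), followed by Cxcl10, Cxcl16, Ccl3, Ccl4 and Ccl9 with ratios between 7.94 and 2.13. Of the Ccl7 counts of C1q-high cells, 4 lay in marrow, 54 in skeletal and 4 in muscle surroundings, and of the Ccl2 counts 17, 105 and 6. Ccl5, a chemokine of lymphocytes, had a ratio of 0.29 on 4 counts in C1q-high cells (0.08 to 0.74).

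Other immune lists moved in part, beside 18.4% higher and 17.2% lower among all assessed genes. Of 17 assessed broad myeloid genes, 11 were higher and 1 lower with a median of 2.50. Among the higher were Ms4a7 (29.1-fold) and the protease gene Ctss (5.74-fold). The rest lay within 2-fold, among them Rac2 at 8126 CPM against 9455. Of 10 genes for interferon response and innate sensing, 5 were higher, including the lipopolysaccharide receptor Tlr4 at 3.54-fold. In the T and NK list, 2 of 6 assessed genes were higher, with a median of 0.777. Cd4, which mouse macrophages can also express, was 11.6-fold and Lag3, an inhibitory receptor, 2.57-fold higher (1.61 to 3.93), whereas the NK cell receptor genes Ncr1 and Klrb1c had ratios of 0.83 and 0.64 on 10 and 11 counts. Of 6 monocyte genes, 2 were higher. Within marrow surroundings 1 of 6 was higher with a median of 0.604, near the 16.9% of all assessed genes there. Within skeletal surroundings 4 of 5 were higher with a median of 4.18, beside 27.1% of all assessed genes there. Of 3 osteoclast genes, 2 were lower, among them Mmp9 with a ratio of 0.35.

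Genes of other lineages were present in the outlines as well. The 13 erythroid genes summed to 181730 CPM in C1q-high cells, 219520 in C1q-0 and 290561 in nearby C1q-0 cells. Of the 13, 0 were 2-fold higher or lower against C1q-0 cells (median 0.794), and 1 was lower against nearby cells (median 0.612). Slc4a1, the anion exchanger of red cells, had a median of 4 and up to 44 transcripts per C1q-high cell, and Hbb-bt, a beta globin gene, a median of 6. The 14 stromal genes summed to 147424 CPM in C1q-high, 154512 in C1q-0 and 92603 in nearby C1q-0 cells. Of the 14, 3 were higher against nearby cells (median 1.59), near the 20.3% of all assessed genes. Within marrow surroundings, as defined below, 0 of 12 assessed were higher and 2 lower (median 0.601), beside 16.9% and 18.9% of all assessed genes there. Col1a1, a chain of type I collagen, had a ratio of 1.047 against all C1q-0 cells.

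When each cell was assigned to the one of 7 lineage lists with the most counts, 57.8% of C1q-high cells (53.7% to 61.8%) fell to the erythroid and 32.3% to the stromal list. Neutrophil transcripts led in 6.08%, and cartilage transcripts led in 0 of 592, which allows a share of up to 0.621%. These classes hold no macrophage list, so they say which other transcripts lay in the outline. The source of these transcripts was not tested.

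Of 13 neutrophil genes, 6 were at least 2-fold lower against C1q-0 cells (median 0.501) and 11 against nearby cells (median 0.380), beside 17.2% and 14.4% of all assessed genes. S100a9, a calcium-binding protein of neutrophil cytoplasm, had a ratio of 0.60 against all C1q-0 and 0.44 against nearby cells. The neutrophil collagenase gene Mmp8 had the lowest ratio against nearby cells, 0.22, at 703 CPM against 3241. It was followed by Ccl5 (0.24), Ifitm6 (0.25), Slamf1 (0.27) and Mrgpra2a (0.27).

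Cartilage genes made up 5 of the 10 smallest ratios against all C1q-0 cells. All 5 were lower, with a median of 0.0743, and Col2a1, Acan, Comp, Sox9 and Ucma ran between 0.0658 and 0.0898. Against nearby cells 0 of the 5 were lower, and their median was 0.917. Fxyd3 had 0 counts in C1q-high cells and 355 in C1q-0 cells, which is at least 3.54-fold lower with a floor of 3 counts over the group. Lipg (0.040), Scin (0.067), Rasd1 (0.083) and Pou3f3 (0.14) completed the 10 smallest ratios, and Lipg and Rasd1 rest on 1 count each in C1q-high cells, with intervals of 0.0010 to 0.22 and 0.0021 to 0.46.

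Levels of most macrophage genes climbed with the C1q count below the threshold as well as above it. Adgre1 was at 550, 1061, 2062, 3537, 6864 and 8408 CPM in cells with 0, 1 to 2, 3 to 4, 5 to 9, 10 to 19 and 20 or more C1q transcripts. Mrc1, Cd163, Spic, Maf and Slc40a1 were also higher at each of the 5 steps, as were 8 of the 11 macrophage surface genes in all. Vcam1 was at 12694 CPM in cells with 10 to 19 and at 9855 in the 73 cells with 20 or more, so its top step ran the other way.

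Genes of other cells followed a different order. Slc4a1 was at 40469, 52401, 57673, 54392, 38198 and 23051 CPM in the same groups, highest in the middle. Col1a1 was lowest in cells with 5 to 9 C1q transcripts, at 36873 CPM, and highest in those with 20 or more, at 70267. The share of cells in marrow surroundings, as defined in the next paragraph, was 83.4% in cells with 5 to 9 and 67.1% in those with 20 or more, and the median area was 49.6 and 121 µm².

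**Figure D2:**
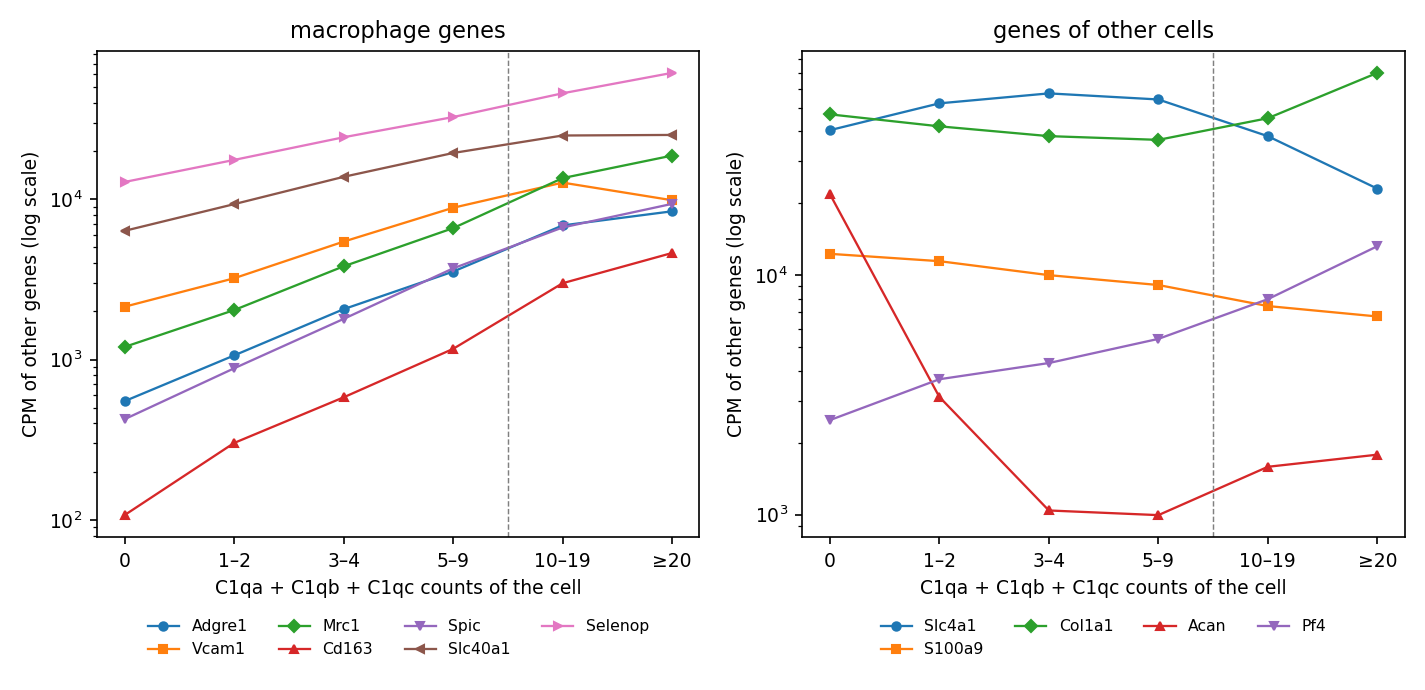
Level of macrophage genes (left) and of genes of other cells (right), in CPM of genes other than C1q on a logarithmic axis, by the number of C1q transcripts of the cell. The dashed line marks the threshold of 10; Adgre1 is higher at each step, from 550 CPM at 0 to 8408 at 20 or more, whereas Slc4a1 is highest at 3 to 4, at 57673.

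The tissue around each cell was then used to divide the C1q-high cells. Surroundings were called marrow where at least 50% of the classed cells within 40 µm were erythroid, neutrophil or megakaryocyte, muscle where at least 50% were skeletal muscle, and skeletal where at least 50% were stromal or cartilage. Of the 592 C1q-high cells, 417 (70.4%, 66.6% to 74.1%) lay in marrow, 157 (26.5%) in skeletal and 17 (2.87%) in muscle surroundings, and 1 was mixed. C1q-high cells made up 1.18% (1.07% to 1.30%) of all cells in marrow, 1.04% (0.886% to 1.22%) in skeletal and 0.814% (0.475% to 1.30%) in muscle surroundings, and these intervals overlap. The map of the section shows them spread along the marrow cavities and along the strips of stromal tissue beside the bones.

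**Figure D3:**
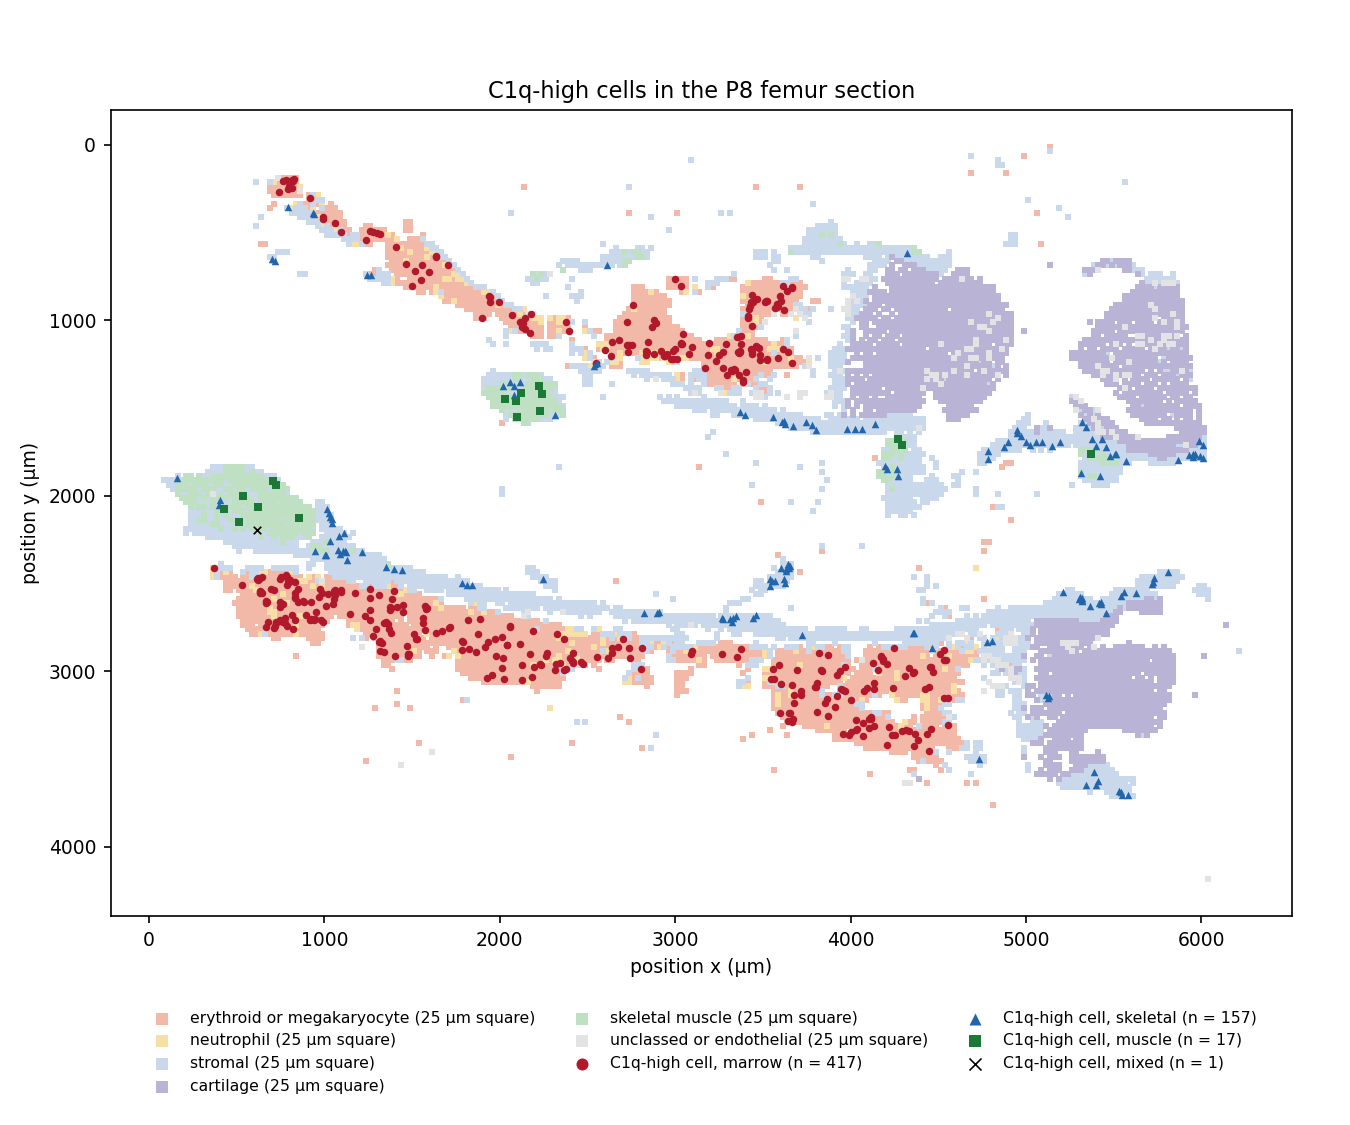
Positions in µm of the 592 C1q-high cells over squares of 25 µm colored by the class of most cells in them. Red circles mark the 417 cells in marrow, blue triangles the 157 in skeletal, green squares the 17 in muscle and a cross the 1 in mixed surroundings; the violet cartilage holds few of them.

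C1q-high cells of these surroundings differed from one another in many genes. Of 162 genes with at least 100 counts, 65 (40.1%) were at least 2-fold higher in the 417 marrow cells than in the 174 cells of skeletal or muscle surroundings, and 64 (39.5%) were lower. The pooled values of all C1q-high cells given above are thus averages over outlines of unlike content. Genes of the lineage lists that defined the surroundings are among those called. Median transcripts were 172 in marrow, 228 in skeletal and 273 in muscle surroundings, and median areas 56.9, 137 and 158 µm².

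Macrophage surface genes divided between the surroundings, with 3 higher in marrow and 4 lower out of 10 assessed, which is no larger a part than the 40.1% and about the 39.5% of all assessed genes. Vcam1 was at 18582 CPM in marrow, 1486 in skeletal and 1037 in muscle surroundings. Its level in marrow was 13.0 times that in both others pooled (9.998 to 17.1), and it was detected in 87.5%, 19.7% and 29.4% of the cells. Marco was at 5962 CPM in marrow on 428 counts against 3 counts elsewhere, a ratio of 83.1 (28.2 to 405). Siglec1 was 2.41-fold higher in marrow. Adgre1 stayed within 2-fold, with a ratio of 1.68 (1.43 to 1.98) to both others pooled, at 8358 CPM in marrow, 5162 in skeletal and 3526 in muscle surroundings, and was detected in 67.6%, 66.2% and 47.1%.

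The genes that were lower in marrow were Cd163, Mrc1, Folr2 and Lyve1. Cd163 was at 1295 CPM in marrow, 6270 in skeletal and 9125 in muscle surroundings, a ratio of 0.20 (0.15 to 0.25), and was detected in 11.03%, 49.0% and 76.5%. Mrc1 was at 10155 CPM in marrow, 21648 in skeletal and 20116 in muscle surroundings. Folr2 was at 488, 5730 and 6014 CPM. Lyve1 was at 69.6, 2540 and 4562 CPM, and its marrow value rests on 5 counts (ratio 0.025, 0.0080 to 0.060). Cd68, shared by phagocytes, had a ratio of 0.87.

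Other lists were divided as well. Of 5 assessed engulfment genes, 4 were higher in marrow, among them Cd5l on 148 counts against 3 (ratio 28.7, 9.64 to 141) and Timd4 at 7.22-fold (4.58 to 12.0), and Cd36 was lower with a ratio of 0.41 (0.37 to 0.46), so that the list summed to 19153 CPM in marrow against 19511 CPM. Of 4 assessed iron handling genes, 3 were higher, with Slc40a1 at 35896 CPM in marrow, 6324 in skeletal and 6844 in muscle surroundings. The others were Tfrc, which is abundant on erythroblasts, and Hp. Against C1q-0 cells of marrow surroundings, 2 of 5 assessed iron handling genes were higher in marrow C1q-high cells (median 0.850). Spic was at 10949, 514 and 207 CPM, and Il18 was 11.6-fold higher in marrow, while Vegfa was lower with a ratio of 0.37 (0.27 to 0.52). The 2 assessed chemokines were lower in marrow, Ccl2 with a ratio of 0.09 (0.05 to 0.15) and Ccl9 with 0.30. F13a1, a coagulation factor chain of monocytes and resident macrophages, was at 1421 CPM in marrow and 16297 in skeletal surroundings, and Selenop (0.72), Ms4a7 (0.75), Maf (1.41) and Trf (1.73) were within 2-fold.

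Transcripts of the surrounding tissue moved with this split. The erythroid list summed to 273060 CPM in marrow C1q-high cells and 25847 in the others, and 12 of 13 of its genes were higher. The stromal list summed to 42624 against 327188 CPM, and all 14 of its genes were lower. Next to Marco, the largest ratios belonged to the erythroid genes Gata1 (64.9, on 3 counts in the second group, 22.0 to 316) and Rhd (29.2) and to Prx (48.3) and Ctse (42.9). The smallest belonged to Gap43, with 0 against 105 counts and at least 60.1-fold lower with a floor of 3 counts. Next came the genes Dpt, Igfbp6, Trdn and Thbs4 of connective tissue and muscle, with ratios between 0.0036 and 0.0063. The Dpt and Trdn ratios rest on few counts in marrow C1q-high cells, at 27.9 and 13.9 CPM. The part of neighboring transcripts in the split was not tested, and each surrounding was next compared with its own C1q-0 cells.

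Within marrow surroundings, C1q-high cells had 41 of 243 genes (16.9%) at least 2-fold higher and 46 (18.9%) lower than C1q-0 cells, and within skeletal surroundings 62 of 229 (27.1%) higher and 40 (17.5%) lower. The medians over all assessed genes were 0.762 and 1.07. Of 177 genes assessed in both, 25 were higher in marrow, 53 in skeletal surroundings and 22 in both. These 22 included Adgre1, 10.8-fold in marrow (9.84 to 11.9) and 29.5-fold in skeletal surroundings (24.1 to 36.1), and Mrc1, Cd163, Cd68, Ms4a7, Ctss, Maf, Spic, Trf, Igf1, Selenop, Dnase2a and Cxcl16.

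Vcam1 was not among them. It was at 18582 CPM in C1q-high against 2834 in C1q-0 cells in marrow, a 6.56-fold ratio (6.18 to 6.95), and at 1486 against 973 CPM in skeletal surroundings, a ratio of 1.53 (1.14 to 2.00). Slc40a1 was 4.28-fold higher in marrow and 1.94-fold in skeletal surroundings (1.696 to 2.22). Lyve1 was at 69.6 against 81.1 CPM in marrow, where it had too few counts to be assessed. In skeletal surroundings it was at 2540 against 162 CPM, a ratio of 15.6. By the summed levels of Adgre1 and Vcam1 RNA, the labeled type was therefore met in marrow surroundings. In skeletal surroundings Adgre1 was higher and Vcam1 stayed below 2-fold. In single cells, both genes were detected together in 267 of all 592 C1q-high cells. The differences between the surroundings were not tested, since the section is 1 sample.

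**Figure D4:**
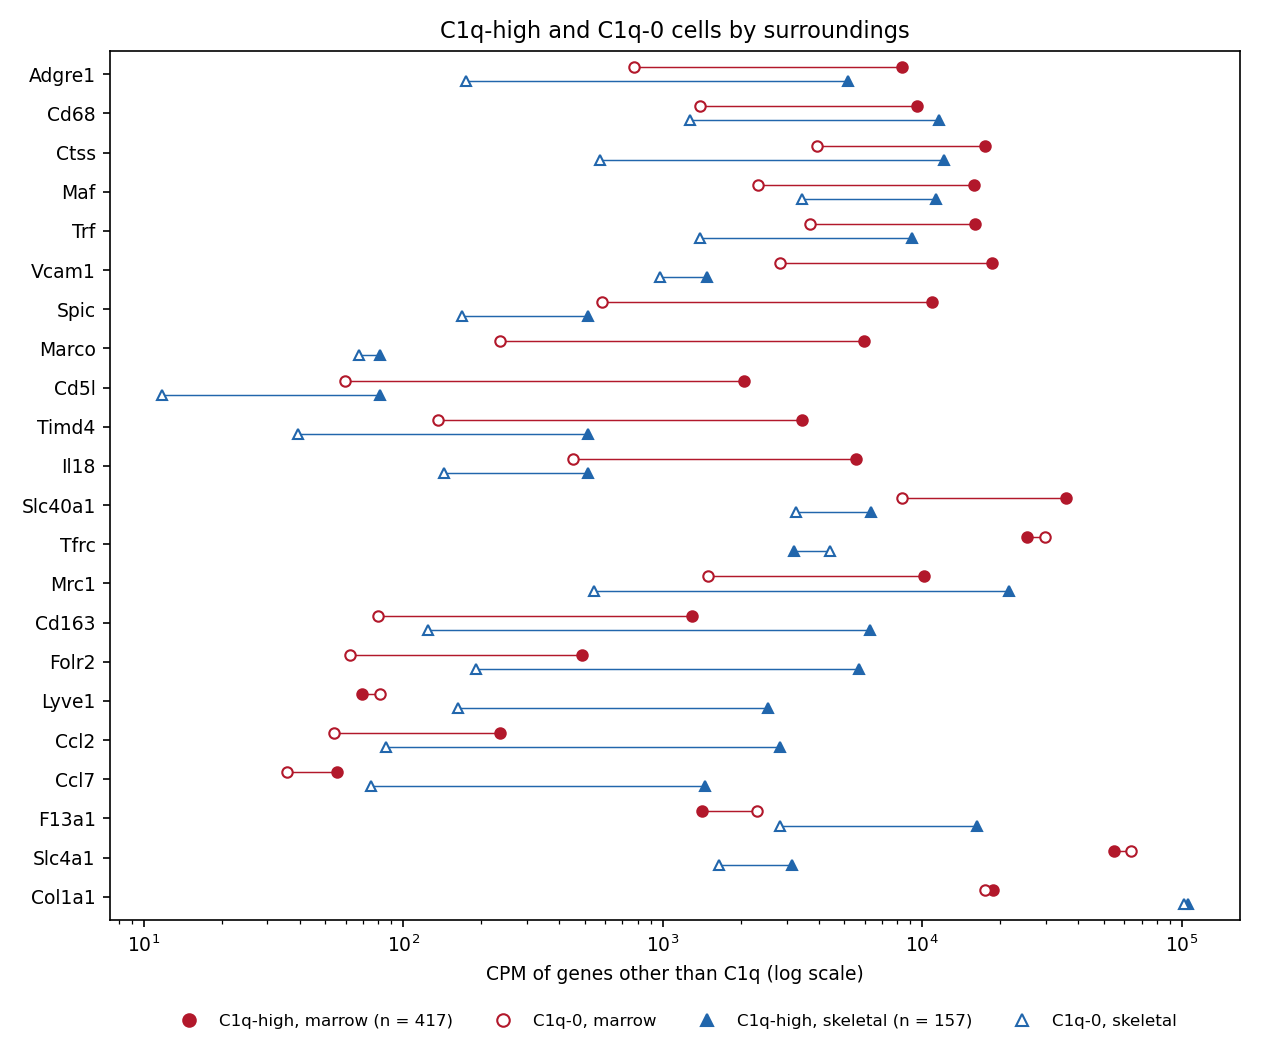
Levels in CPM of genes other than C1q, on a logarithmic axis, of 22 genes in C1q-high cells (filled) and C1q-0 cells (open) in marrow (red circles) and skeletal surroundings (blue triangles), joined by a line for each gene. Adgre1 is higher in C1q-high cells in both, and Vcam1 by 6.56-fold in marrow and 1.53-fold in skeletal surroundings. Lyve1 is higher in skeletal surroundings and had too few counts in marrow to be assessed.

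Within marrow surroundings the erythroid sum was 273060 CPM in C1q-high and 339929 in C1q-0 cells, with 0 of 13 genes 2-fold apart, and 8 of 13 neutrophil genes were lower. Within skeletal surroundings 5 of 12 erythroid genes were higher, among them Hbb-bt at 8189 against 3738 CPM. Of 6 assessed neutrophil genes there, 0 were lower, with a median of 1.20. The cartilage genes, 5 of 5, were lower there, and 13 of 14 broad myeloid genes were higher. Pf4, a chemokine of platelets that macrophages can also express, was 31.1-fold higher in skeletal surroundings and had a ratio of 1.43 in marrow.

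Some genes of the marrow and the skeletal pattern were detected in different shares of the C1q-high cells with and without Vcam1. Spic was detected in 67.3% of the C1q-high cells with Vcam1 and in 20.4% of those without, and the median number of other transcripts was 164 and 185. Cd163 was detected in 14.7% and 40.8%, and Lyve1 in 3.74% and 30.4%. Adgre1 was detected in 66.6% and 67.0%. Mrc1, which was higher in skeletal surroundings, was detected in 75.6% and 84.3%. The shares of Spic, Cd163 and Lyve1 thus lay further apart than those of Mrc1 and Adgre1, and the surroundings were not held constant in these shares.

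Erythroid cells stood close to the C1q-high cells of the marrow, and about as close to marrow C1q-0 cells. This reference holds erythroid cells itself, since 44.9% of all C1q-0 cells were of the erythroid class. By most counts, 57.8% of C1q-high outlines fell to that class too, among classes without a macrophage list. The values thus compare in part with erythroid cells around erythroid cells, and an association of macrophages with erythroid cells was not tested. Within 40 µm of a marrow C1q-high cell there were 73.3 ± 29.99 erythroid-class cells (SD over 417 cells) of 95.1 ± 32.8 cells in all, and around a marrow C1q-0 cell 81.7 of 104. Erythroid cells made up 79.1% of the classed cells around the former and 80.0% around the latter. Both groups had been restricted to places where at least 50% of the classed cells within this radius were of marrow classes, so the high level of both shares follows in part from that definition. Without it, erythroid cells made up 68.7% around all C1q-high and 68.1% around all C1q-0 cells. The nearest erythroid-class cell lay at a median of 6.24 µm from marrow C1q-high cells, against 5.48 µm from marrow C1q-0 cells. Their median outlines were 56.9 and 36.9 µm², and the part of outline size in this distance was not tested.

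C1q-high cells had more of their own kind nearby. A C1q-high cell had 1.54 others within 40 µm on average and a C1q-0 cell had 0.736, and within marrow the values were 1.63 and 1.06. Of the C1q-high cells, 71.1% had at least 1 other within 40 µm, against 40.6% of C1q-0 cells, and within marrow these shares were 72.2% and 56.9%. Around any cell of marrow surroundings, the mean was 1.12 and the share 58.7%. Centers, neighbors and the C1q-0 reference were all set by C1q counts. An outline that holds C1q of an adjoining cell also leaves the C1q-0 group, and the part of this in the difference was not tested. The nearest other C1q-high cell lay at a median of 25.7 µm (quartiles 11.1 and 43.0), and 39.7% had one within 20 µm.

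Single transcripts, counted in rings of 5 µm around the cell center whatever the outline, gave the spatial extent. Around marrow C1q-high cells, C1q fell from 19.5 per 100 µm² within 5 µm to 6.83 at 5 to 10 µm, 2.93 at 10 to 15 µm and 2.27 at 15 to 20 µm, where C1q-0 cells had 2.26. Vcam1 went from 4.74 to 2.06 and 1.18, against 0.777, 0.963 and 1.09 around C1q-0 cells, and Adgre1 from 2.07 to 0.795 and 0.439, against 0.233, 0.298 and 0.338. At 15 to 20 µm, Vcam1 was at 1.11 against 1.09 and Adgre1 at 0.369 against 0.345. Most of the excess of these 2 genes, which the rule had not used, thus lay within 10 µm of the center.

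Erythroid transcripts were fewer in the central ring and close to those around C1q-0 cells in the next rings. Of all C1q-0 cells, 44.9% were of the erythroid class, so the central ring of this reference covers erythroid cells themselves. The 13 erythroid genes summed to 83.7 per 100 µm² within 5 µm of marrow C1q-high cells, 98.5 at 5 to 10 µm and 94.8 at 10 to 15 µm, against 98.0, 97.1 and 95.4 around C1q-0 cells. At 15 to 20 µm the sum was 88.7 against 93.1. Slc4a1 was at 17.0 per 100 µm² within 5 µm of marrow C1q-high cells and at 19.2 at 5 to 10 µm, against 18.2 and 18.2 around C1q-0 cells. Neutrophil genes were at 11.5 within 5 µm and at 15.9 and 18.8 in the next rings, against 23.3, 21.2 and 19.7. Endothelial genes were at 2.42 within 5 µm and at 3.73 at 10 to 15 µm, against 3.63 and 3.51. All 4 were lower in the central ring than around C1q-0 cells.

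**Figure D5:**
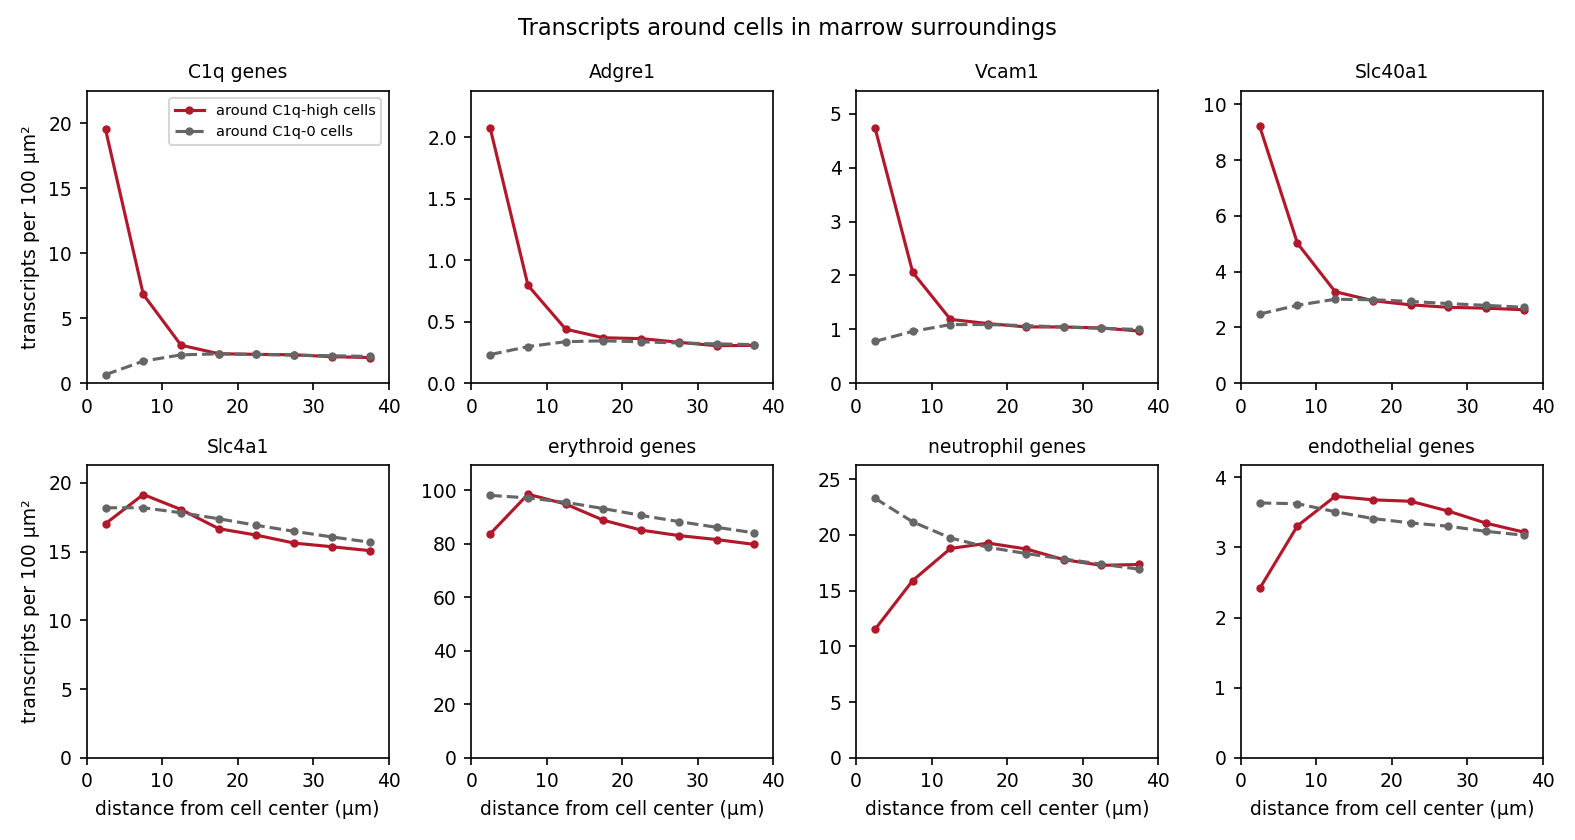
Transcripts per 100 µm² in rings of 5 µm by distance from the cell center, around the 417 marrow C1q-high cells (solid red) and marrow C1q-0 cells (dashed gray), for C1q, Adgre1, Vcam1, Slc40a1, Slc4a1 and the sums of the erythroid, neutrophil and endothelial lists. Adgre1 and Vcam1 are higher within 10 µm, at 2.07 against 0.233 and 4.74 against 0.777 in the first ring, and the erythroid sum is lower within 5 µm, at 83.7 against 98.0, and close to the other line at 5 to 10 µm, at 98.5 against 97.1.

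Inside the outlines, 50.7% (49.6% to 51.7%) of C1q transcripts lay over the nucleus, compared with 47.9% of all transcripts of these cells. The nucleus took 26.8% of the summed area of C1q-high outlines and 19.4% of that of C1q-0 outlines, sums in which large outlines weigh most. Per cell, the median share of the nucleus was 44.5% in C1q-high and 43.5% in C1q-0 cells. Within marrow surroundings the order was reversed, at 55.4% and 62.1%. Of the transcripts of Vcam1, 59.7% lay over the nucleus in C1q-high and 50.8% in C1q-0 cells, and of Maf 56.0% and 43.6%. The macrophage surface list as a whole was at 53.1% against 56.2%, and Adgre1 at 55.3% against 57.2%. Spic reached 63.2% in C1q-high cells. Erythroid genes were at 58.5%, against 61.3% in C1q-0 cells. Stromal genes were at 27.3% and 27.4%. In a section of this thickness, a transcript over a nucleus may lie above or below it.

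The spread within the section was taken over squares of 500 µm. The 9 squares with at least 20 C1q-high cells held 305 of them, and their share of cells ran from 0.810% to 2.67%. In 8 of the 9, 92.6% to 100% of the C1q-high cells lay in marrow surroundings, so the squares mainly show the spread within marrow. Adgre1 was higher in C1q-high than in C1q-0 cells in 9 of 9 squares, by 8.36 to 15.4-fold, as were Mrc1 (5.13 to 40.4), Maf (4.18 to 7.60) and Slc40a1 (2.40 to 5.53). Vcam1 was at least 2-fold higher in 8 of 9, up to 8.91-fold, and had a ratio of 0.303 in the other, whose 20 C1q-high cells all lay outside marrow surroundings. Marco and Spic were also at least 2-fold higher in 8 of 9, with a ratio of 0 in that same square. Cd163 was at least 2-fold higher in 8 of 9 and had a ratio of 0 in a square with 42 C1q-high cells, all in marrow surroundings. Slc4a1 was above a ratio of 1 in 2 of 9, and Lyve1 in 2 of 9. Squares of 1 section are not replicates.

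The same rule was applied to the sections that shared the panel and the run. It selected 3112 cells (2.65%) of the E14.5 fetal liver, 12060 (11.1%) of the untreated and 9045 (9.56%) of the PHZ spleen, with medians of 181.5, 150 and 173 transcripts. These values stand side by side without a test, since each is 1 section and tissue, age and slide differ.

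C1q-high cells of the P8 marrow surroundings, at 18582 CPM of Vcam1, lay between those of the E14.5 liver at 7525 and those of the untreated spleen at 33375, with the PHZ spleen at 18132. Over all P8 C1q-high cells, the level was 1.63 times that of the liver (1.53 to 1.73). Adgre1 was at 8358 CPM in marrow surroundings, 10301 in the liver, 7857 in the untreated and 3101 in the PHZ spleen. Cd5l was at 2062 CPM against 17826, 11666 and 8435, the lowest of the 4, and Timd4 at 3455 CPM against 8427, 3051 and 1910. These orders hold for the marrow subset. Over all P8 C1q-high cells, Vcam1 at 12246 CPM lay below the PHZ spleen, Adgre1 at 7107 and Timd4 at 2354 CPM lay below the untreated spleen, and Spic at 7090 CPM was the lowest of the 4.

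Slc40a1 was at 35896 CPM in marrow surroundings, 42270 in the liver, 60068 in the untreated and 43342 in the PHZ spleen, and Spic at 10949, 10618, 25487 and 10604. Marco was at 5962 CPM, 16684, 3257 and 13892 in the same order. Cd163 was at 1295 CPM in marrow surroundings, 118 in the liver, 3784 in the untreated and 590 in the PHZ spleen. Lyve1 was at 69.6 CPM in marrow surroundings, against 1236 in the liver, 80.4 in the untreated and 136 in the PHZ spleen, and 116 of the 121 Lyve1 counts of all P8 C1q-high cells lay in skeletal or muscle surroundings.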

How the data were processed

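The authors deposited raw, unnormalized counts for each gene in each cell outline, cell positions and areas, and every decoded transcript with its quality score. Per the deposited run description, these were made with Xenium Onboard Analysis 1.7.1.0, whereas the methods of the study name Space Ranger. Counts rebuilt here from transcripts with a score of at least 20 had 0 differing pairs of cell and gene. No genome build is named in the sources used here.

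Cells were grouped by their C1q counts. Counts of each gene were summed per group and divided by the total of genes other than C1q. A gene was assessed with at least 200 counts over both groups (100 between surroundings) and called at 2-fold. Intervals are exact conditional Poisson intervals for ratios and exact binomial (Clopper-Pearson) intervals for shares, at 95% and cover counting error only. Python 3.11.15, numpy 2.4.6, scipy 1.17.1 and pandas 2.3.3 were used. The gene ratios, their calls and their intervals were tested on simulated counts, and the other steps were not. The members and the 21 gene lists were chosen with earlier results of these data known.

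Named genes were the C1q genes, Adgre1 and Vcam1, the members of 6 macrophage lists, the 15 largest and 10 smallest ratios against C1q-0 cells, the 5 largest and smallest against nearby cells and between surroundings, and of the other lists up to 4 genes with most counts. Pf4 in skeletal surroundings and F13a1 between surroundings follow from the last of these. The comparisons within marrow and within skeletal surroundings were added after the data were seen. Alternatives were other C1q minimums, folds, filters, totals, radii and scores, nuclear transcripts and thinning to 50 counts. The E13.5 liver and the aged marrow were measured with another panel and were not used.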

Additional observations from a re-analysis of the deposited data

How the results depend on the processing

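The number of genes at least 2-fold higher against C1q-0 cells, 59, stayed within 1.5 times under 9 other settings, with values between 41 (marrow surroundings only) and 81 (no minimum of counts). It was 37 at 3-fold and 101 as counts per cell. The number lower, 55, was 30 with 5 or more and 108 with 20 or more C1q counts as the rule, 21 at 3-fold and 15 as counts per cell. The number lower than in nearby cells, 39, was 67 with 20 or more C1q counts. The erythroid share of classed cells around C1q-high cells, 68.7%, was 69.2% within 20 µm, 64.6% with 20 or more C1q counts and 69.4% when a class needed 10 counts. The median area, 67.2 µm², was 53.2 with 5 or more and 120.9 with 20 or more C1q counts. The share of C1q transcripts held, 16.9%, was 43.0% and 3.67% under the same rules and 16.5% at a score of 30 or more. The ratio of Vcam1 to that of the E14.5 liver, 1.63, was 1.83 after thinning. The cause of these shifts was not tested, except that a higher fold and a smaller group call or hold fewer by construction. No paired analysis was possible because each condition has 1 section and no test was made. The minimum of 200 counts was a chosen filter over both groups, which counts of C1q-0 cells alone could meet. With no minimum, 81 genes were higher and 69 lower.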
